A study of Mus musculus with 5 samples.

Results

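A set of 8 genes of membrane transporters were followed through single-cell RNA sequencing of mouse spinal cord meningeal and perivascular cells: Slc6a13, Slc6a20a, Slc13a3, Slc22a6, Slc47a1, Slc7a11, Slc4a10 and Slc36a2. They were chosen by symbol, and all 8 were found among the 27998 genes that the 5 count tables share. Cells carrying the Col1a1GFP reporter, in which a collagen I promoter marks collagen-producing cells, were sorted from the spinal cords of mice on a C57/BL6 background. Of the 5 libraries, 3 came from healthy mice (Healthy 1 to 3) and 2 from mice with EAE, experimental autoimmune encephalomyelitis, an immune-mediated inflammation of the central nervous system (EAE 1 and EAE 2). All mice carried the reporter, and the labels give no age, sex, EAE stage or number of animals per library. The labels do not say that libraries came from separate animals, so the p-values measure the spread between libraries, part of which may be technical.

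The meninges are the membranes around the brain and spinal cord, and their fibroblasts line the spaces filled with cerebrospinal fluid. Cells of the arachnoid, the middle membrane, and of the pia, the innermost, carry transporters that move amino acids, the transmitter GABA, organic anions and bicarbonate between blood, fluid and tissue. Solute carriers are membrane proteins that move a substrate along its gradient or couple it to the gradient of an ion such as sodium, chloride or protons.

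Cell barcodes were shared between the libraries Healthy 1, Healthy 2 and EAE 1: 996 between the first and the second, 1239 between Healthy 1 and EAE 1, and 683 between Healthy 2 and EAE 1. Each shared barcode was kept only where its UMI total was highest, which left out 1549 of 2293 barcodes in Healthy 1, 684 of 1118 in Healthy 2 and 2 of 2156 in EAE 1. UMIs (unique molecular identifiers) count captured RNA molecules. Fibroblasts were gated on 7 genes, Col1a1, Col1a2, Col3a1, Dcn, Lum, Pdgfra and Serping1, which left 660, 380 and 350 barcodes of Healthy 1 to 3, 1662 of EAE 1 and 1157 of EAE 2. Their median depth was 1236.5, 3138.5 and 4258 UMIs in Healthy 1 to 3, while EAE 1 and 2 had 4660.5 and 5166. Levels are given as CPM, UMIs scaled to a total of 1000000 in the summed barcodes. In the gated fibroblasts the melanocyte list summed to at most 2.66 CPM, the lymphocyte list to at most 5.20 CPM and the pericyte list to 15.4 to 48.3 CPM. The 6 myeloid markers summed to 3.06 to 7.29 CPM over Healthy 1 to 3, where 2 to 4 of them were at 0, and to 55.6 and 36.4 CPM in EAE 1 and 2, where none was.

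Classes were gated inside the fibroblasts and are named here by their first gate gene. No transporter of the set is a gate gene. However, the Igfbp3 gate follows an earlier grouping of these cells that was named by Igfbp3, Slc13a3 and Wnt4. The Clec3b gate (Clec3b, Fmod, Igfbp2), the Itih5 gate (Itih5, Hsd11b1, Edn3) and the Osr2 gate (Osr2, Gfra1, Col9a2) held at least 20 barcodes in every library. The Igfbp3 gate (Igfbp3, Wnt4), the Inmt gate (Inmt, Cldn1, Aldh1a3), the Lcn2 gate (Lcn2, Saa3), the Lsp1 gate (Lsp1, Npy1r, Dapk1) and the Tnc gate (Tnc, Cxcl9, Col7a1) reached that number only in the EAE libraries. The Comp gate held 14 barcodes in all. Of 4209 gated fibroblasts, 28.3% met no gate and 35.3% met exactly 1, so the classes are ranges and not separate types. Between 2.19% (Lcn2) and 24.9% (Inmt) of a class sat at the lowest possible gate signal of 2 UMIs.

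Layer markers divided unevenly over the classes. Of 6 arachnoid markers, 5 were higher in Clec3b-gated than in Osr2-gated barcodes in all 5 libraries, and Tbx18 was not in Healthy 2 and Healthy 3. Of 5 dura markers 4 were likewise higher, Crabp2 being on both lists, and their list summed to 3736, 3954 and 3226 CPM in the Clec3b-gated barcodes of Healthy 1 to 3 against 914, 677 and 1130 CPM in the Osr2-gated ones, so the Clec3b gate carried markers of both layers. Ptgds, the prostaglandin D synthase abundant in arachnoid cells, stood at 1116, 5903 and 3232 CPM in the Clec3b-gated barcodes of Healthy 1 to 3 and at 271 and 13366 CPM in those of EAE 1 and 2. In Osr2-gated barcodes Ptgds stood between 6.77 and 40.9 CPM. The pial laminin gene Lama1 was between 81.5 and 168 CPM in Itih5-gated barcodes and at most 24.5 CPM in Osr2-gated ones, and Clec3b-gated barcodes of Healthy 3 held more of it (160 CPM) than Itih5-gated ones (124 CPM). Other genes of the pial and perivascular list lay the other way. Lama2 stood at 332, 426 and 372 CPM in Osr2-gated barcodes of Healthy 1 to 3 against 184, 289 and 233 CPM in Itih5-gated ones, Col15a1 was also higher in the Osr2 gate in those 3 libraries, and Ngfr was highest in Osr2-gated barcodes in each library among the classes of at least 20 barcodes. Cldn11, a tight junction gene of the arachnoid barrier, reached 208 and 256 CPM in Inmt-gated and 262 and 148 CPM in Igfbp3-gated barcodes of EAE 1 and 2. The barrier genes Krt18 and Cdh1 were at 0 in every gated class, and barcodes without a gate held at most 2.27 CPM of Cdh1.

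Positions are in mm10. Slc6a13 lies on chromosome 6 (121300227 to 121337733, plus strand), Slc6a20a on chromosome 9 (123634770 to 123678885, minus) and Slc13a3 on chromosome 2 (165405028 to 165473230, minus). Slc22a6 lies on chromosome 19 (8618039 to 8628299, plus), Slc47a1 on chromosome 11 (61343401 to 61378345, minus) and Slc7a11 on chromosome 3 (49892526 to 50443614, minus). Slc4a10 lies on chromosome 2 (62046462 to 62326730, plus) and Slc36a2 on chromosome 11 (55158470 to 55185077, minus). All are annotated as protein-coding. Counting is per gene, and how reads over the unnamed transcripts that overlap Slc6a20a and Slc7a11 were assigned is not stated. The near copy Slc6a20b had 15 UMIs over all deposited barcodes, against 709 for Slc6a20a.

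Promoter sequence from RefSeq (GRCm38.p6, the assembly of mm10) was found for 6 of the 8 genes. A pair of stretches is shown because their genes carried the results below in opposite directions: Slc7a11, the cystine exchanger gene, whose known regulators include ATF4 and NRF2, and Slc6a13, the GABA carrier gene. Both end at the base before the annotated gene start (Slc7a11 at chr3:50443615-50443863, minus strand; Slc6a13 at chr6:121300038-121300226, plus strand). Capitals mark matches to the ATF4-type element TGATGCAA in Slc7a11 and to the NRF2-type element TGACNNNGC in Slc6a13, searched on both strands.
Slc7a11: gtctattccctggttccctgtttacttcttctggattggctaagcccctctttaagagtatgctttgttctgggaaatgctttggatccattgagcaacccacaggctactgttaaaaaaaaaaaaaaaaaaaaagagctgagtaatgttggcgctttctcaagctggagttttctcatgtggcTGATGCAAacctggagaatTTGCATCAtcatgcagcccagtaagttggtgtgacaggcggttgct
Slc6a13: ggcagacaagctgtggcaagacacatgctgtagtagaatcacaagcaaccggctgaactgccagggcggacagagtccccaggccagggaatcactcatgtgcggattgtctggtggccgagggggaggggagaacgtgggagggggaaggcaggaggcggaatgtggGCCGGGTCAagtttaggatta
The Slc7a11 stretch held the ATF4-type element on each strand, with its first bases at -66 and -47 from the RefSeq start site. Of 32851 promoter windows of 250 bases, 0.791% held it at least once and 2 windows held it at least 2 times. The Slc6a13 window held 1 NRF2-type match and no ATF4-type match, and the former occurs in 10.2% of windows. Slc13a3 also held 1 NRF2-type match, and the windows of Slc6a20a, Slc22a6 and Slc4a10 held neither element. A match describes letters only.

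EAE was compared with healthy in sums over all gated fibroblasts of each library. Of 9914 genes tested, 9.94% were called higher and 10.3% lower in EAE at an adjusted p under 0.05. Of the 8 transporters, 5 passed the filter on low counts: Slc6a13 and Slc6a20a fell, Slc36a2 rose, and Slc7a11 and Slc13a3 missed the threshold. The filter asked for at least 6.77 CPM in 2 libraries. Slc36a2 passed it through the EAE libraries, so its presence among the tested genes already depended on its level there. The mix of classes differed between states: Osr2-gated barcodes gave 15.1%, 34.6% and 43.1% of fibroblast UMIs in Healthy 1 to 3, against 0.942% in EAE 1 and 3.07% in EAE 2, and Tnc-gated barcodes gave none in healthy and 16.0% and 22.9% in EAE. In such sums fewer barcodes of a class and less RNA per barcode cannot be told apart, so tests were also run within the 3 classes present in every library. A barcode that met several gates went to 1 class only, and 25.6% of gated fibroblasts met 2 gates and 8.77% met 3. Gates filled in EAE may thus draw barcodes out of these 3 classes, and the part of this in the results was not tested. In Clec3b-gated sums 0.952% of 3675 genes were called higher and 0.571% lower. In Itih5-gated sums 7.12% of 3513 genes were called higher and 3.76% lower. In Osr2-gated sums 0.952% of 3363 genes were called higher and 0.208% lower.

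**Figure D1:**
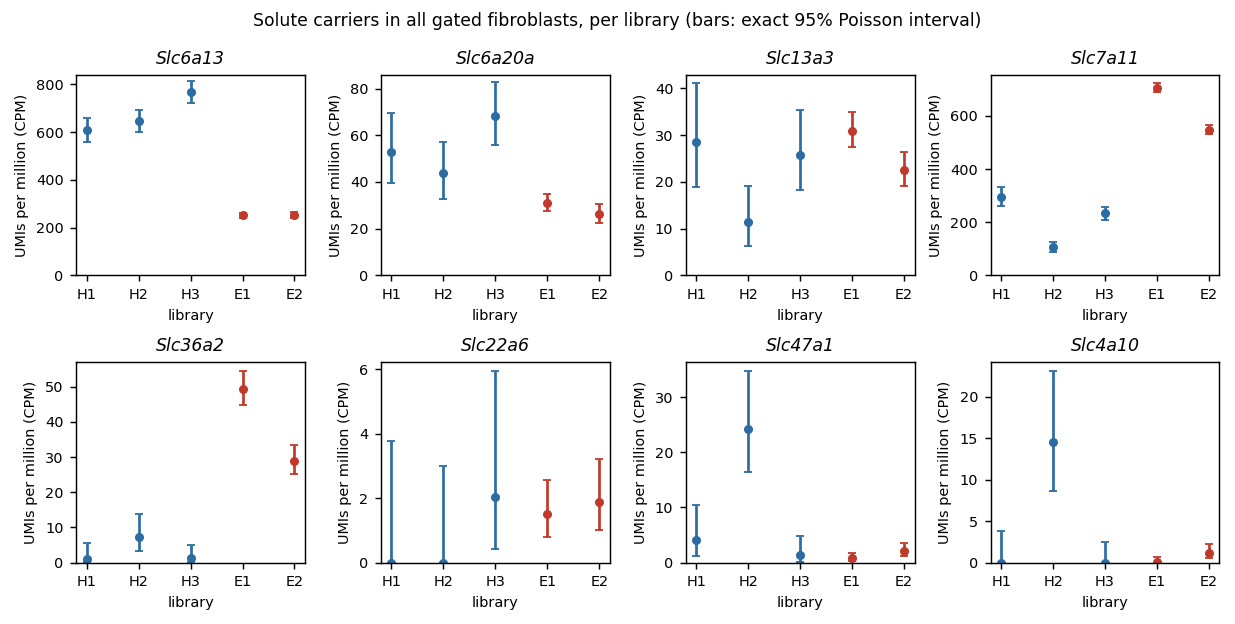
Level of each transporter in all gated fibroblasts, in CPM (y axis), for the libraries Healthy 1 to 3 (blue) and EAE 1 and 2 (red); bars are exact 95% Poisson intervals and cover counting error only. Slc6a13 is between 608 and 767 CPM in healthy and at 252 CPM in both EAE libraries, Slc36a2 is at most 7.29 CPM in healthy and 49.5 and 29.0 CPM in EAE, and Slc47a1 and Slc4a10 stand out in Healthy 2 alone.

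The first pair of transporters carries GABA and amino acids. Slc6a13 encodes GAT2, which takes up GABA together with sodium and chloride and is known from the meninges. Its level over all gated fibroblasts was 608, 646 and 767 CPM in Healthy 1 to 3 and 252 CPM in both EAE libraries. The groups did not overlap. Slc6a13 fell in EAE by 1.54 on the log2 scale (SE 0.19, adjusted p = 3.1e-04). Within EAE 1, Healthy 1 and Healthy 2, whose labels carry no sequencing lane, the log2 ratio was -1.32, and within Healthy 3 and EAE 2, whose labels do, it was -1.61.

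Slc6a13 was found in every class of at least 20 barcodes. In Clec3b-gated barcodes it stood at 755, 1374 and 1166 CPM in Healthy 1 to 3 and at 652 and 732 CPM in EAE 1 and 2. In Itih5-gated barcodes it stood at 1231, 1071 and 1034 CPM in healthy and at 355 and 380.2 CPM in EAE. In Osr2-gated barcodes it stood at 372, 506 and 525 CPM in healthy and at 294 and 283 CPM in EAE. Healthy Clec3b- and Itih5-gated barcodes thus held the highest levels, and in EAE the Itih5-gated level lay close to the Osr2-gated one. Among the classes filled only in EAE, Igfbp3-gated barcodes had 434 and 659 CPM, those of the Inmt, Lcn2 and Lsp1 gates had 202 to 281 CPM, and Tnc-gated barcodes had 64.8 and 35.5 CPM. Pericyte and smooth muscle barcodes of the same libraries had 0 to 42.2 CPM, the highest from 11 UMIs in 3 of 42 barcodes of EAE 2. The Tnc-gated level of EAE 2 lay inside that range and the level of EAE 1 above it. Whether that range is background was not tested, so it does not place the Tnc gate at background. Myeloid or lymphocyte barcodes held 15.8 CPM in EAE 1 (8 UMIs) and 70.0 CPM in EAE 2 (7 UMIs).

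Within Itih5-gated barcodes Slc6a13 fell by 1.55 (SE 0.27, adjusted p = 9.7e-04), and the healthy and EAE libraries did not overlap. In Clec3b-gated barcodes its log2 fold was -0.75 (SE 0.28, adjusted p = 0.233) and in Osr2-gated barcodes -0.74 (SE 0.26, adjusted p = 0.249), neither past the threshold. The difference between the Itih5 and the Clec3b effect was -0.93 (SE 0.26, adjusted p = 0.0684) in a fit added after the data were seen, in which 0.904% of 4205 genes were called, so a difference between these classes was not established. Without EAE 1 the call within Itih5-gated barcodes was lost, with a log2 fold of -1.38 (SE 0.56, adjusted p = 0.27), without Healthy 1 the Clec3b-gated value was called (log2 fold -0.94, adjusted p = 0.01), and without Healthy 2 the difference between classes was called (-1.07, adjusted p = 0.0283).

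To compare shares of barcodes at equal depth, gated fibroblasts with at least 1000 UMIs were thinned to 1000, which left out 256 of 660, 19 of 380 and 9 of 350 barcodes in Healthy 1 to 3, none in EAE 1 and 47 of 1157 in EAE 2. Of the thinned barcodes, 38.4%, 43.5% and 50.7% in Healthy 1 to 3 held a Slc6a13 UMI, against 24.2% and 23.6% in EAE 1 and 2. The unthinned shares, of all gated fibroblasts, were 46.8%, 66.8% and 82.3% in healthy and 55.7% and 53.6% in EAE. At equal depth all healthy shares lay above the EAE shares; unthinned, Healthy 1, the shallowest library, lay below both EAE libraries.

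Slc6a20a encodes SIT1, a sodium- and chloride-coupled carrier of proline and other imino acids. Over all gated fibroblasts it stood at 53.0, 43.8 and 68.4 CPM in Healthy 1 to 3 and at 31.0 and 26.3 CPM in EAE 1 and 2, without overlap. Slc6a20a fell in EAE by 1.05 on the log2 scale (SE 0.24, adjusted p = 0.0097). The call was lost without Healthy 3 (-0.74, adjusted p = 0.284) and without EAE 2 (-0.72, adjusted p = 0.321). The log2 ratio was -0.64 among the libraries without a lane in their labels and -1.38 among those with one.

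Slc6a20a was far less evenly spread than Slc6a13. Clec3b-gated barcodes held 89.1, 248 and 168 CPM in healthy and 139 and 182 CPM in EAE, and Itih5-gated barcodes 176, 96.2 and 84.1 CPM in healthy and 71.0 and 43.0 CPM in EAE. Osr2-gated barcodes held 4, 0 and 1 UMIs in Healthy 1 to 3 and none in either EAE library. The upper limit that 0 counts allows in Osr2-gated barcodes was 7.03 CPM in Healthy 2, 36.8 CPM in EAE 1 and 14.2 CPM in EAE 2. Igfbp3-gated barcodes of EAE 1 and 2 had 63.8 and 104 CPM, and the other EAE classes 4.44 to 31.8 CPM. Pericyte and smooth muscle barcodes reached 30.7 CPM in EAE 2 (8 UMIs in 7 of 42 barcodes), above the Inmt, Lsp1 and Tnc gates in that library. Myeloid or lymphocyte barcodes held 0 UMIs in EAE 1 and EAE 2. Whether the level of 30.7 CPM is background was not tested, so it does not place those gates at background. Within Clec3b-gated barcodes the log2 fold was -0.15 (SE 0.41, adjusted p = 0.903) and within Itih5-gated barcodes -0.94 (SE 0.37, adjusted p = 0.116). No fall inside a class passed the test.

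**Figure D2:**
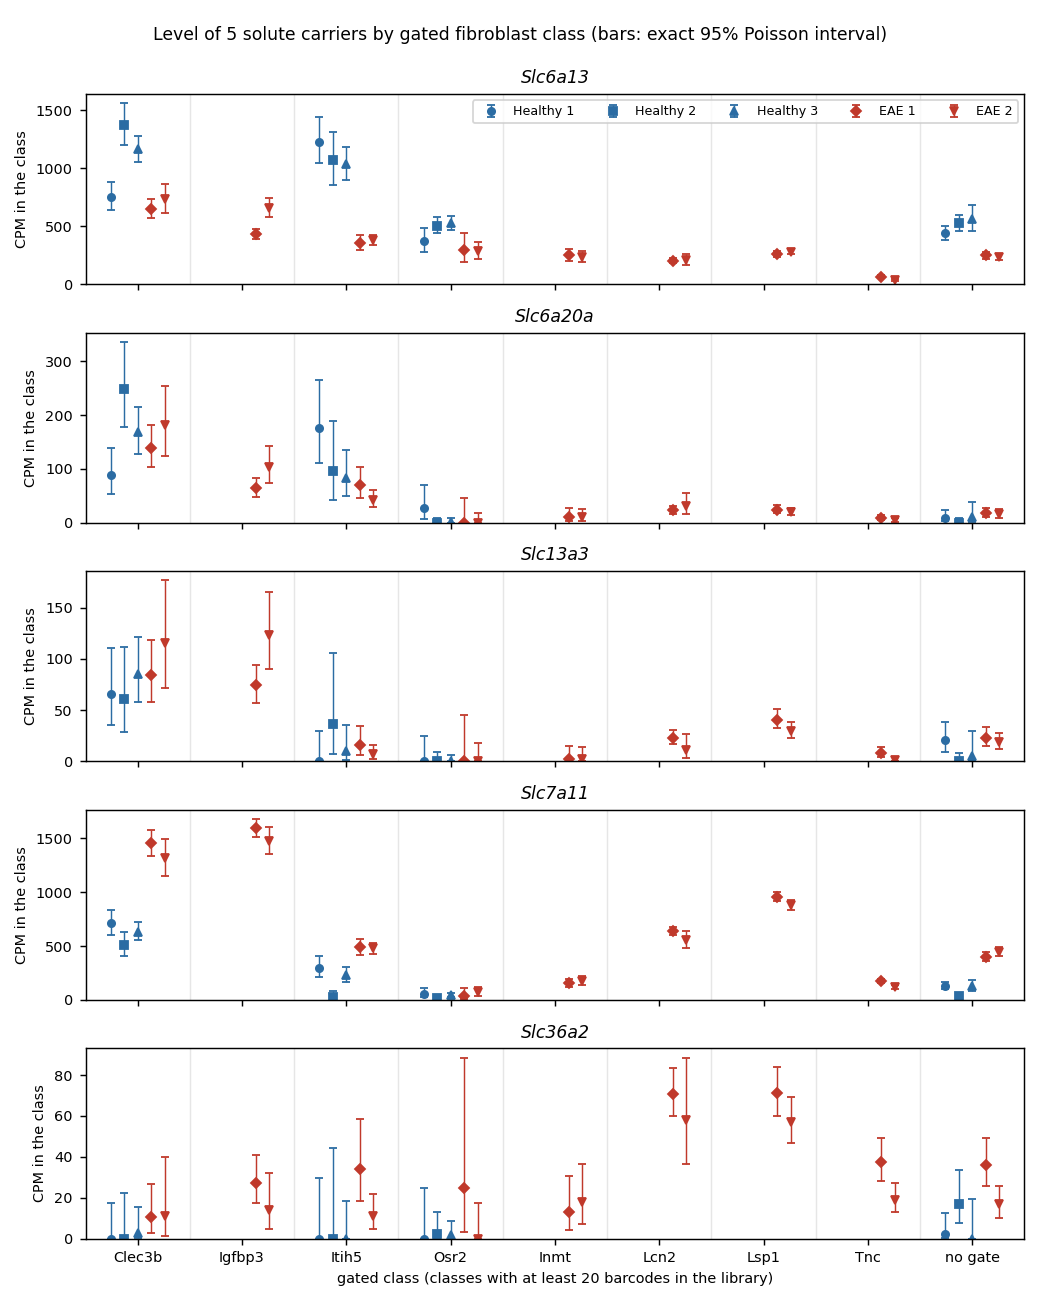
Level of 5 transporters (CPM, y axis of each panel) by gated class (x axis) in each library with at least 20 barcodes of the class; blue symbols are healthy libraries, red symbols EAE libraries, and bars exact 95% Poisson intervals. Slc13a3 is at 0 in Osr2-gated barcodes of all 5 libraries, Slc7a11 is highest in the Clec3b and Igfbp3 gates, and Slc36a2 is highest in the Lcn2 and Lsp1 gates of EAE.

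The second group carries organic anions and dicarboxylates. Slc13a3 encodes NaDC3, a sodium-coupled carrier of dicarboxylates such as succinate. Its sum over gated fibroblasts was 28.5, 11.3 and 25.7 CPM in Healthy 1 to 3 and 31.0 and 22.5 CPM in EAE 1 and 2. The groups overlapped, and the log2 fold of 0.21 (SE 0.33, adjusted p = 0.711) was not called. Its sign was negative without Healthy 2 and without EAE 1.

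The division over classes was steeper for Slc13a3. In Clec3b-gated barcodes it stood at 65.6, 60.5 and 85.5 CPM in Healthy 1 to 3 and at 84.1 and 116 CPM in EAE 1 and 2. In Osr2-gated barcodes no UMI was found in any library, which allows up to 20.3, 7.03 and 4.72 CPM in Healthy 1 to 3 and 36.8 and 14.2 CPM in EAE 1 and 2. Clec3b-gated barcodes gave 14 of 28, 10 of 14 and 31 of 38 Slc13a3 UMIs in gated fibroblasts of Healthy 1 to 3, from 21.7%, 13.4% and 24.5% of all UMIs. In EAE 1 and 2 Clec3b-gated barcodes gave 11.9% and 13.5% of Slc13a3 UMIs, Igfbp3-gated ones 24.3% and 29.0%, and Lsp1-gated ones 29.9% and 35.5%. Of all UMIs there, the Clec3b gate held 4.40% and 2.64%, the Igfbp3 gate 10.1% and 5.28%, and the Lsp1 gate 22.7% and 26.9%. The share of Slc13a3 thus stayed well above the share of all UMIs in the Clec3b and Igfbp3 gates, and was closer to it in the Lsp1 gate. Slc13a3 marked the earlier grouping behind the Igfbp3 gate, so its high level in that gate was built in and is a description only. The levels of the Igfbp3 gate were 74.0 and 124 CPM and those of the Lsp1 gate 40.7 and 29.7 CPM, whereas Inmt-gated barcodes held 1 UMI in each EAE library. Within Clec3b-gated barcodes the log2 fold was 0.36 (SE 0.32, adjusted p = 0.667).

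Slc22a6 encodes OAT1, the organic anion transporter best known from the kidney, which exchanges anions for dicarboxylates. It was rare, with 29 UMIs in 21 barcodes: none in Healthy 1 and Healthy 2, 3 in Healthy 3, and 13 in each EAE library. It was under the filter on low counts and was not tested in the main comparison. Of the 21 barcodes, 20 held a Slc7a11 UMI, 19 a Slc6a13 UMI and 12 a Slc13a3 UMI. For comparison, 92.3% and 81.4% of all Igfbp3-gated barcodes of EAE 1 and 2 held Slc7a11. Slc6a13 was held by 81.1% and 82.9% of them, and Slc13a3 by 23.7% and 35.7%. Clec3b- and Igfbp3-gated barcodes held all 3 UMIs of Healthy 3, 3 and 4 of the 13 UMIs in EAE 1, and 3 and 6 of the 13 in EAE 2. When barcodes were clustered in place of being gated, 24 of the 29 UMIs fell into 1 cluster of 538 barcodes, in which 41.3% were Lsp1-gated. Lsp1-gated barcodes themselves held only 1 Slc22a6 UMI in each EAE library, so the cluster does not place the gene in that class. At 0 UMIs the upper limit was 3.06 CPM in Healthy 1 and 2.43 CPM in Healthy 2, above the 1.89 CPM seen in EAE 2, so no difference between states was detectable.

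**Figure D3:**
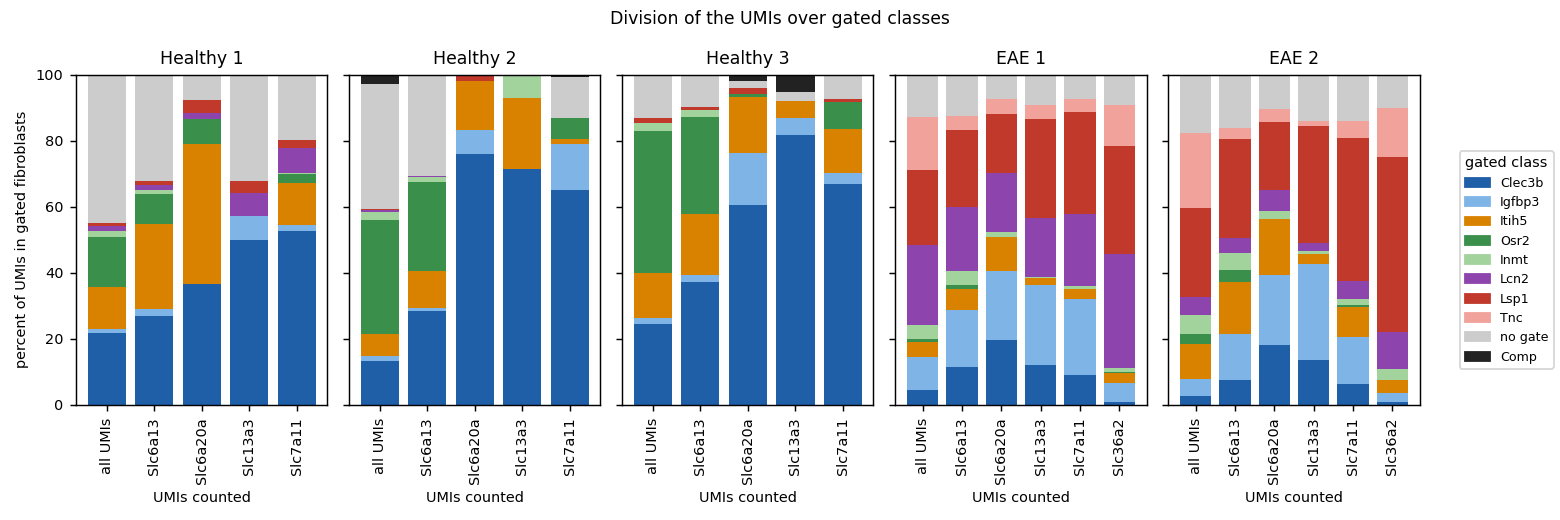
Percent of the UMIs in gated fibroblasts (y axis) contributed by each gated class (colours), for all UMIs and for each transporter (x axis), in each library; Slc36a2 is drawn for EAE only because the healthy libraries hold 12 UMIs in all. Clec3b-gated barcodes give 52.6% to 66.9% of Slc7a11 UMIs in healthy and 9.05% and 6.33% in EAE, where the Lsp1 gate gives 30.8% and 43.3%.

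Slc7a11 encodes xCT, the exchanger that brings in cystine for glutathione synthesis and releases glutamate, working with the heavy chain encoded by Slc3a2. Over all gated fibroblasts it stood at 294, 105 and 233 CPM in Healthy 1 to 3 and at 706 and 547 CPM in EAE 1 and 2. Both EAE libraries lay above all healthy ones, and Healthy 2 was the lowest. The log2 fold of 1.49 (SE 0.42) had an adjusted p of 0.0583 and so was not called. DESeq2 called it (adjusted p = 0.00215), as did edgeR without Healthy 2 (1.19, adjusted p = 0.0014) and without Healthy 3 (1.73, adjusted p = 6.6e-05). It was also called by edgeR without a filter on low counts (adjusted p = 8.5e-10), without the batch term (adjusted p = 0.0406) and with all barcodes as deposited (1.08, adjusted p = 0.018). Scaling to library totals did not call it (adjusted p = 0.0547), nor did barcodes with at least 1000 UMIs (adjusted p = 0.0635). No call was made without the fibroblast gate (adjusted p = 0.0777) or without Healthy 1 (1.88, adjusted p = 0.0848). Without EAE 1 the log2 fold was 1.16, and without EAE 2 it was 1.75.

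Clec3b-gated barcodes had 713, 509 and 634 CPM of Slc7a11 in Healthy 1 to 3 and 1453 and 1315 CPM in EAE 1 and 2, without overlap. There Slc7a11 rose by 1.10 on the log2 scale (SE 0.22, adjusted p = 0.0396). The call was lost without Healthy 3 (adjusted p = 0.0898), without EAE 1 (adjusted p = 0.661) and without EAE 2 (adjusted p = 0.103), with log2 folds of 0.98 to 1.21 over the 5 omissions. Itih5-gated barcodes had 296, 24.1 and 228 CPM in healthy and 489 and 479 CPM in EAE, with a log2 fold of 1.34 (SE 0.61, adjusted p = 0.249). This value was called without Healthy 1 (1.82, adjusted p = 3.0e-07) and without Healthy 3 (1.60, adjusted p = 0.0469). Osr2-gated barcodes had 54.1, 18.7 and 44.0 CPM in healthy and 36.8 and 70.8 CPM in EAE, so the groups overlapped (log2 fold 0.63, SE 0.53, adjusted p = 0.717).

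The classes filled only in EAE differed widely in Slc7a11. Igfbp3-gated barcodes held 1594 and 1475 CPM in EAE 1 and 2, Lsp1-gated 959 and 881 CPM and Lcn2-gated 638 and 556 CPM. Tnc-gated barcodes held 175 and 120 CPM and Inmt-gated ones 152 and 177 CPM. The order of these 5 classes was Igfbp3, Lsp1, Lcn2 and then Tnc and Inmt, whose places changed between the libraries. Pericyte and smooth muscle barcodes held 24.4 and 30.7 CPM in EAE 1 and 2, and 46 melanocyte-gated barcodes of EAE 1 held 28.9 CPM. Myeloid or lymphocyte barcodes held 39.5 CPM in EAE 1 and 210 CPM in EAE 2 (21 UMIs in 6 of 32 barcodes). The latter level lay above those of the Tnc and Inmt gates in EAE 2. Of the barcodes with at least 1000 UMIs, thinned to that number, 17.6%, 7.48% and 17.9% in Healthy 1 to 3 held a Slc7a11 UMI, against 37.2% and 33.1% in EAE. Over all gated fibroblasts, without thinning, these shares were 20.8%, 15.5% and 30.6% against 64.1% and 56.9%.

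**Figure D4:**
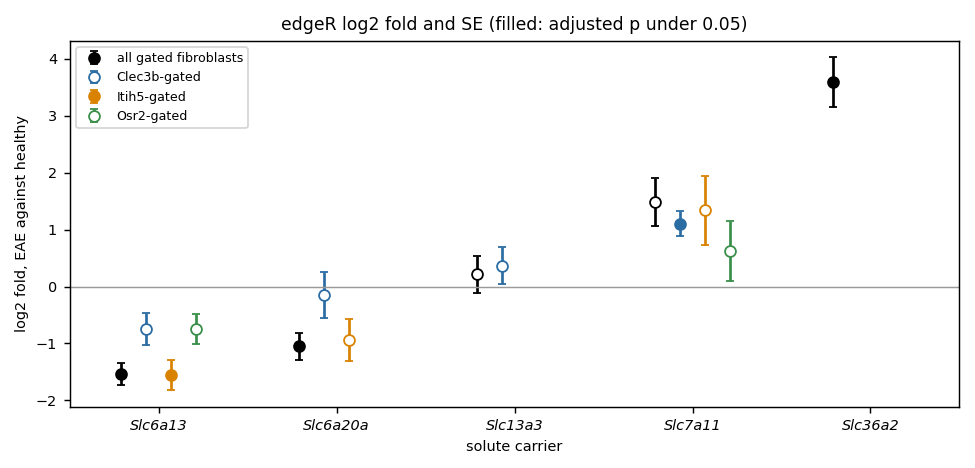
Log2 fold of EAE against healthy (y axis) with its SE for 5 transporters (x axis), over all gated fibroblasts and within 3 gated classes (colours), from edgeR; filled points have an adjusted p under 0.05. Slc6a13 is below 0 in all 4 comparisons and called in 2 of them, and Slc7a11 is above 0 in all 4 and called in the Clec3b gate only.

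Slc36a2 encodes PAT2, which carries small amino acids such as proline and glycine with protons. It was nearly absent from the healthy libraries, with 1, 9 and 2 UMIs in gated fibroblasts of Healthy 1 to 3 (1.02, 7.29 and 1.35 CPM). EAE 1 and EAE 2 held 428 and 200 UMIs (49.5 and 29.0 CPM). Slc36a2 rose in EAE by 3.59 on the log2 scale (SE 0.44, adjusted p = 3.1e-04). Only 1 healthy library reached the filter of 6.77 CPM, so the gene was tested only because of its EAE levels. With all barcodes as deposited the log2 fold was 1.80 (SE 0.41, adjusted p = 0.0346), a setting in which shared barcodes count in each library that lists them.

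Of the 9 UMIs of Healthy 2, 7 came from 1 barcode that also held 3402 UMIs of Bglap, the osteoblast gene for osteocalcin. Of the 428 UMIs in EAE 1, 10 lay in barcodes with any UMI of the osteoblast genes Bglap, Ibsp and Sp7, and of the 200 in EAE 2, 1 did. Almost all Slc36a2 UMIs in EAE therefore lay in barcodes without these markers. Without Healthy 2 the log2 fold was 4.84 (SE 0.49, adjusted p = 1.5e-04).

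In EAE the Lcn2 and Lsp1 gates held the highest levels of Slc36a2; Lcn2 and Saa3, the genes of the former gate, encode acute phase proteins. Lcn2-gated barcodes had 70.9 and 58.3 CPM in EAE 1 and 2 and Lsp1-gated ones 71.3 and 57.2 CPM. Tnc-gated barcodes had 37.5 and 19.0 CPM, Igfbp3-gated ones 27.3 and 13.7 CPM, and Clec3b-gated ones held only 4 and 2 UMIs. Itih5-gated barcodes had 34.2 and 11.1 CPM (13 and 8 UMIs) in EAE 1 and 2, and 0 UMIs in Healthy 1 to 3. In the main fits Slc36a2 was not tested within any class. Without the filter, log2 folds were 5.86 (Itih5 gate, adjusted p = 0.032), 2.67 (Clec3b gate, adjusted p = 0.771) and 1.95 (Osr2 gate, adjusted p = 0.931). The Lcn2 and Lsp1 gates together gave the larger part: 148 and 140 of the 428 Slc36a2 UMIs in EAE 1, and 22 and 106 of the 200 in EAE 2. Pericyte and smooth muscle barcodes held 19.5 CPM in EAE 1 (4 UMIs) and none in EAE 2, and myeloid or lymphocyte barcodes none in EAE 1 and 3 UMIs in EAE 2. The myeloid list, higher in the EAE fibroblast sums, moved with this result, and its part in it was not tested.

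The last pair, Slc47a1 and Slc4a10, was confined to a few barcodes. Slc47a1 encodes MATE1, which exports organic cations in exchange for protons, and Slc4a10 encodes a sodium-coupled bicarbonate transporter also found in choroid plexus. Slc47a1 had 4, 30 and 2 UMIs in Healthy 1 to 3, while EAE 1 and 2 had 7 and 15. Slc4a10 had 18 in Healthy 2, none in Healthy 1 and Healthy 3, and 1 and 8 in EAE 1 and 2. Both were thus highest in Healthy 2, and neither passed the filter on low counts in the fit with all 5 libraries.

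Within Healthy 2, the Comp gate of 8 barcodes gave 22 of the 30 Slc47a1 UMIs and 13 of the 18 Slc4a10 UMIs. Of these 8 barcodes, 6 held Slc47a1, 5 held Slc4a10 and 4 held both. The 3 Comp-gated barcodes of EAE 2 held 1 Slc47a1 UMI and 3 Slc4a10 UMIs. Comp encodes cartilage oligomeric matrix protein, a matrix protein of cartilage and tendon. The dura-type genes Mgp and Fxyd5 stood at 15309 and 1688 CPM in the Comp-gated barcodes of Healthy 2, against at most 4269 CPM for Mgp and 410.1 CPM for Fxyd5 in any other class of at least 20 barcodes. When barcodes were clustered without the transporters, 1 cluster of 36 barcodes held 38 of 58 Slc47a1 UMIs and 23 of 27 Slc4a10 UMIs, so the 2 genes met there without the Comp gate. Slc47a1 was called lower in EAE by edgeR without the filter (-2.51, adjusted p = 0.0034) but not by DESeq2 (-2.20, adjusted p = 0.221), and 30 of the 36 healthy UMIs came from Healthy 2. With fewer libraries the genes could pass the filter. Slc47a1 was then called lower without Healthy 3 (-4.25, adjusted p = 1.4e-06) and without EAE 2 (-4.20, adjusted p = 0.00638), and had a log2 fold of 0.60 (adjusted p = 0.888) without EAE 1, where Healthy 3 and EAE 2 are the only libraries of 1 batch that differ in state. Slc4a10 was called lower without Healthy 3 (-5.87, adjusted p = 4.2e-04), not called without EAE 2 (-5.71, adjusted p = 0.0867), and had a log2 fold of 4.64 (adjusted p = 0.693) without EAE 1. Without Healthy 2 neither gene reached the test.

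**Figure D5:**
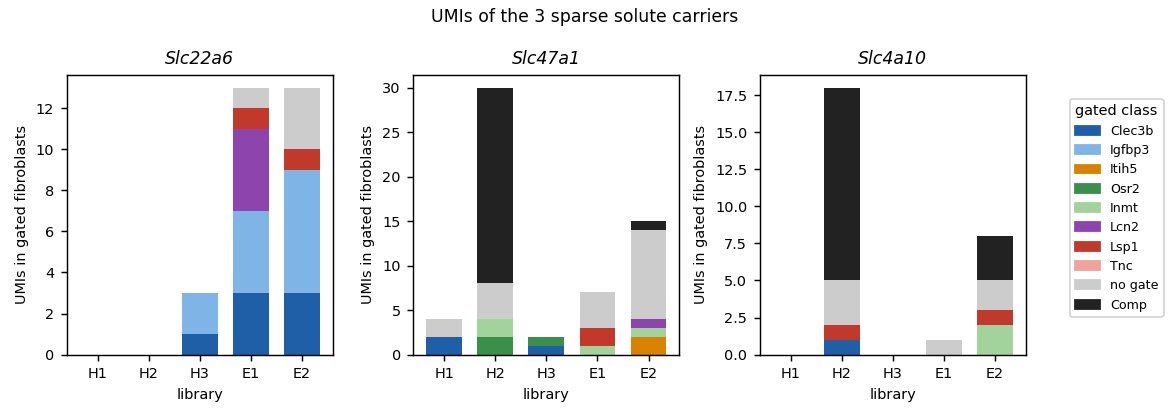
UMIs of the 3 sparse transporters in gated fibroblasts (y axis) by library (x axis), coloured by gated class. Slc22a6 lies mostly in the Clec3b and Igfbp3 gates and in the EAE libraries, and the Comp gate of Healthy 2 holds 22 of 30 Slc47a1 UMIs and 13 of 18 Slc4a10 UMIs in that library.

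Transporters were also compared with each other across 25 sums, 1 for each gated class of at least 20 barcodes in a library; these sums share libraries, depth and gates, so r is a description. Over these sums Slc13a3 and Slc7a11 had the highest Pearson r of the 10 pairs of the 5 better-measured genes (0.763, on log2 of CPM plus 10), followed by Slc6a20a with Slc13a3 (0.729) and Slc6a13 with Slc6a20a (0.699). Slc6a13 and Slc36a2 had the lowest, -0.624. In single barcodes thinned to 1000 UMIs, 81.3% of 64 barcodes with Slc13a3 in EAE 1 also held Slc7a11, against 35.5% of those without, and in EAE 2 71.4% of 28 against 32.1%. In the healthy libraries 4 to 7 thinned barcodes held Slc13a3, too few for a share.

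Outside the set, the genes whose levels over the 25 sums were most like each transporter were taken by the highest Pearson r among 5929 genes. For Slc6a13 the top gene was Cpq (0.949), a secreted carboxypeptidase gene. For Slc6a20a they were Cmbl (0.917), a hydrolase gene, and Aldh1a1 (0.913), an aldehyde dehydrogenase of retinoic acid synthesis. For Slc13a3 they were Pcca (0.902), a subunit of the propionyl-CoA carboxylase, and Slc3a2 (0.867), whose product is the partner of the Slc7a11 protein. For Slc7a11 they were Moxd1 (0.932), a monooxygenase-like gene, and Robo1 (0.916), a receptor for Slit guidance proteins. Robo1 was at 0 in Osr2-gated sums and at 83.3 CPM on average in Clec3b-gated ones. For Slc36a2 they were Slc39a14 (0.925), a zinc and iron transporter, and Cyp1b1 (0.887), a cytochrome P450 gene, which averaged 852 CPM in Lsp1-gated and 105 CPM in Osr2-gated sums. The other 3 transporters were too sparse for this measure.

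Other transporters were read from 5 lists of related genes, in sums over all gated fibroblasts, beside the 9.94% of genes called higher and 10.3% called lower. Some listed genes passed the filter through 1 state alone, so the counts are descriptions: of those named below, Slc6a6, Slco2a1, Car13 and Slc15a3 were under 6.77 CPM in every healthy library and were tested only because of their EAE levels, and Slc22a3, Car3 and Nqo1 only because of their healthy levels. Of 21 tested amino acid and GABA transporters, 4 rose and 2 fell, with a median log2 fold of 0.33 against 0.01 over all genes. Slc6a6, the taurine carrier, rose by 2.86 (SE 0.60, adjusted p = 0.00669), and Slc7a2, a carrier of cationic amino acids, rose by 2.35 with 31.6, 11.3 and 24.4 CPM over Healthy 1 to 3 and 139 and 100.4 CPM over EAE 1 and 2. Slc38a3 fell by 1.05 and Slc38a2 fell by 0.84, both sodium-coupled carriers of neutral amino acids; Slc38a2 stood at 294 CPM in EAE 2, inside its healthy range of 202 to 369.6 CPM.

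Of 22 tested organic ion and drug transporters, 4 rose and 5 fell (median 0.02). The prostaglandin transporter gene Slco2a1 rose by 3.47 and the monocarboxylate carrier gene Slc16a6 by 1.80. The nucleoside transporter gene Slc29a1 fell by 2.12 (SE 0.24, adjusted p = 1.4e-04), with 175, 250.4 and 247 CPM over Healthy 1 to 3 against 55.3 and 56.4 CPM, and the organic cation transporter gene Slc22a3 fell by 2.00. Of 13 tested genes of bicarbonate, proton and chloride handling, 1 rose and 3 fell (median 0.29). The carbonic anhydrase gene Car13 rose by 4.44, from at most 2.03 CPM in healthy to 28.5 and 22.5 CPM in EAE. Car3, another carbonic anhydrase gene, fell by 5.22 with healthy levels of 9.17, 44.6 and 0 CPM, and Slc12a2, the sodium, potassium and chloride cotransporter gene, fell by 1.52.

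For Slc7a11, the list of cystine uptake, glutathione and NRF2 or ATF4 target genes held 25 tested genes, of which 1 rose, 7 fell and 17 did not pass (median -0.11). Pgd, an enzyme of the pentose phosphate pathway, rose by 0.84. The NRF2 target Nqo1 fell by 2.18, with at least 17.8 CPM in each healthy library and 5.89 and 5.22 CPM in the EAE ones, and Phgdh, the first enzyme of serine synthesis, fell by 1.98. Among all 132 other solute carriers tested, 15 rose and 18 fell (median -0.14). The largest rises there were Slc15a3, a peptide and histidine carrier of endolysosomes, by 4.20, and Slc39a14 by 3.68 (SE 0.29, adjusted p = 2.5e-05).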

How the data were processed

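The authors deposited 1 table of UMI counts per gene and barcode for each of 5 libraries; the submitters' processing notes name Cell Ranger 2.1.1, Seurat 3 and the build mm10. Filters applied earlier: not given in the sources used here. Kept barcodes had 200 or more genes and no more than 10% mitochondrial UMIs, with each shared barcode counted once (highest UMI total). Doublets were not removed. Fibroblasts needed 3 UMIs from 2 of 7 markers, and were left out where at least 3 UMIs of 2 markers of another cell type exceeded 25% of those UMIs. A class needed 2 gate markers (Comp: 2 UMIs); barcodes meeting several gates went to the highest relative score. CPM were taken over plain UMI totals of the summed barcodes. Sums per library were tested with edgeR 4.0.16 (quasi-likelihood, TMM, its filter on low counts, terms for batch and state, robust; R 4.3.3) and Benjamini-Hochberg adjustment over all genes; adjusted p-values are from it unless DESeq2 1.42.0 is named. Batch means whether labels carry a sequencing lane: 3 libraries do not, 2 do. Classes were compared by levels only, since gate genes came from groupings of these cells. Intervals are exact Poisson (95%), limits at 0 use 3 counts, and both cover counting error only. In data simulated for the comparison over all gated fibroblasts, the fit was tested on changed genes before use. Gated fibroblast depth was 981478 to 8654786 UMIs per library. The transporters, gates and lists were chosen with earlier results of these data known. Named genes were all 8 transporters, the 2 genes most like each (Pearson r, mean of at least 20 CPM), and up to 2 rises and 2 falls of largest fold per list. One gene under this rule is not reported here. Alternatives covered the test, scaling, filter, batch term, barcodes, gates, depth and each library left out; those within classes without the filter, and the fit of the difference between classes, were added after seeing the data.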

Additional observations from a re-analysis of the deposited data

How the results depend on the processing

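Over all gated fibroblasts, 1 transporter was called higher in EAE (Slc36a2), which was tested only because of its EAE levels. With Slc7a11 added, 2 were called higher by DESeq2, beside 611 of 12466 genes, and with all barcodes as deposited, beside 642 of 10320. The same 2 were called without the batch term, beside 671 of 9914 genes, and without the filter on low counts, beside 1653 of 18073. Leaving out a healthy library gave 1 to 2 higher and 2 to 3 lower, but not the same genes. Slc6a20a was lost without Healthy 3, where Slc47a1 and Slc4a10 were called lower. Within Clec3b-gated barcodes these omissions gave 0 to 1 higher and 0 to 1 lower, and within Itih5-gated barcodes 0 to 1 higher and 1 lower. For the difference between the Itih5 and Clec3b effects they gave 0 to 1 lower, the 1 without Healthy 2, beside 8 of 5104 genes. Omitting EAE 1 or EAE 2 leaves 1 EAE library, so no count of calls is given for it here. Without EAE 2 the Slc6a20a log2 fold was -0.72, and without EAE 1 the Itih5-gated Slc6a13 log2 fold was -1.38. Within Itih5-gated barcodes 2 of 6 were called higher without the filter, beside 360 of 14077 genes. Over all gated fibroblasts, leaving out Healthy 1, 2 or 3 called 1549 of 11843, 898 of 11769 or 658 of 12323 genes higher. The same omissions called 1306, 787 or 547 genes lower. In Clec3b-gated sums they called 91 of 4186, 66 of 4305 or 45 of 4064 genes higher, and 114, 77 or 44 lower. In Itih5-gated sums they called 373 of 4515, 157 of 4429 or 115 of 5219 genes higher, and 286, 62 or 61 lower. The causes were not tested. Uncalled values changed sign with a library left out. Over all gated fibroblasts Slc13a3 ranged from -0.27 (without EAE 1) to 0.59, with -0.10 without Healthy 2. In Clec3b-gated barcodes Slc6a20a ranged from -0.43 to 0.30 (without Healthy 2), with 0.09 without EAE 1. In the difference between classes Slc13a3 ranged from -1.39 to 0.43 (without Healthy 2), with 0.23 without EAE 2, and Slc7a11 from -0.057 (without Healthy 2) to 0.51. Clec3b-gated minus Osr2-gated levels were above 0 in 5 of 5 libraries for Slc6a13, Slc6a20a, Slc13a3 and Slc7a11. With clusters in place of gates the Slc13a3 difference was 34.1 CPM (gates: 82.3) and the Slc7a11 difference 518 CPM (gates: 879.8). The Slc36a2 difference, Lsp1-gated minus Clec3b-gated in EAE, was 25.7 CPM (gates: 53.5), and thinned barcodes gave 65.9 CPM. The cluster standing for the Lsp1 gate held 32.5% of its barcodes. With all libraries pooled, which mixes states, Slc7a11 was at 1631 CPM in that cluster and 558 CPM in the Clec3b one. Slc13a3 was at 101 and 44.3 CPM in the same clusters. Slc36a2 reached 87.9 CPM in another cluster, against 27.8 CPM in the one standing for Lsp1. No paired analysis was possible because healthy and EAE libraries share no more than 1 replicate number in the labels. Depth limits the 3 sparse transporters most, with 29, 58 and 27 UMIs in all gated fibroblasts.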
